A study of Saccharomyces cerevisiae with 32 samples.

Results

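The 9 genes described here encode the cyclins that partner the Cdc28 kinase of budding yeast: the G1 cyclins CLN1, CLN2 and CLN3 and the B-type cyclins CLB1 to CLB6. They were taken by gene symbol, a choice made with earlier results of these data known. All 9 were found among the 4918, 5326, 4921 and 4921 genes of the 4 deposited tables. Ribosome footprints and mRNA had been sequenced from whole cells of helicase mutants and their wild types. Translational efficiency (TE) is the footprint level of a gene minus its mRNA level on the log2 scale, so a TE change of -1 is a 2-fold lower TE in the mutant.

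Cyclins switch on Cdc28 at set stages of the cell cycle and are then destroyed by ubiquitin ligases, so their amount follows their synthesis closely. Cln3 acts first, in G1, and starts the transcription programme run by the SBF and MBF factors, whose targets include CLN1, CLN2, CLB5 and CLB6. Cln1 and Cln2 drive bud emergence, Clb5 and Clb6 start DNA replication, Clb3 and Clb4 help to build the spindle, and Clb1 and Clb2 bring about mitosis. CLB1 and CLB2 are transcribed late in the cycle with the help of Mcm1, Fkh2 and Ndd1. Ded1 and eIF4A are RNA helicases that help the small ribosomal subunit to load on an mRNA and reach its start codon.

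The 32 samples were 16 mRNA and 16 footprint libraries from whole cells, 2 biological replicates for each of 16 groups. The cold-sensitive mutant ded1-cs (strain NSY5) was set against wild-type DED1 (NSY4) at 15 °C, and the temperature-sensitive mutant ded1-ts (NSY11) against wild-type DED1 (NSY10) at 37 °C. The tif1-ts mutant (NSY21), altered in one of the genes for eIF4A, was set against wild-type TIF1 (NSY20) at 30 °C and at 37 °C. All cultures grew in synthetic complete medium to an optical density of about 0.7, were shifted in temperature, and were treated for 2 min with 100 µg/ml cycloheximide, which stops elongating ribosomes. The sources used here do not give the length of the shifts or any other alleles of the strains. The wild types of ded1-cs and ded1-ts were different strains. Each deposited column pools a group, so every value below is 1 value per group, no difference has a replicate check, and no test could be made. "Higher" and "lower" describe these libraries. Because cultures were sampled in bulk, fewer cells at a cell cycle stage and less mRNA per cell at that stage cannot be told apart.

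The steps between the lowest footprint values put the depth at 3880000 to 12000000 reads per column; for mRNA it is unknown. The cyclins had an estimated 20 to 1243 footprint reads per column, which gave standard errors from counting alone of 0.103 to 0.343 for the log2 footprint change. In ded1-cs the estimate is least certain, since 38.0% of low values came out as whole reads where chance gives 20%. The mutated gene DED1 (YOR204W) had mRNA changes of 0.95 in ded1-cs and -0.77 in ded1-ts in the authors' deposited table, which does not show the mutations themselves. Its footprint changes there were 2.04 and -0.57, and its TE changes 1.09 and 0.19, in the same order. TIF1 was not analysed here.

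In the wild types, 3 B-type cyclins (CLB1, CLB3 and CLB5) stayed in the lower part of the TE range, while the G1 cyclins and CLB2 lay near or above its middle. A percentile here is the position of a value among all genes that entered, those with a mean abundance of at least 10 in both assays. CLB1 (YGR108W) combined abundant mRNA with poor translation. Its mRNA level per kb of coding sequence lay between the 79.2nd and 83.3rd percentile of all genes in the 4 wild types, while its TE lay between the 11.9th and 14.8th. CLB3 (YDL155W) was placed likewise, at percentiles 60.8 to 67.3 for mRNA per kb and 13.6 to 19.1 for TE. CLB5 (YPR120C) was also poorly translated, with TE percentiles of 11.3 to 25.2 beside mRNA percentiles of 36.2 to 58.5. CLB4 (YLR210W) followed with TE percentiles of 19.8 to 37.1 and mRNA percentiles of 19.6 to 46.2. CLB6 (YGR109C) had mRNA percentiles of 13.7 to 26.4, and its TE ranged from percentile 26.2 to 68.8.

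The G1 cyclins stood higher in TE. CLN2 (YPL256C) had TE percentiles of 50.6 to 67.4 and mRNA percentiles of 55.9 to 77.8. CLN1 (YMR199W) had TE percentiles of 39.7 to 75.9, and CLN3 (YAL040C) of 48.2 to 76.7 with mRNA percentiles of 22.5 to 49.8. CLB2 (YPR119W), the paralog of CLB1, had TE percentiles of 43.7 to 93.0, above those of CLB1 in each of the 4 wild types. In wild-type TIF1 at 30 °C the order of mRNA per kb on the log2 scale was CLB1 (8.10), CLN2 (7.79), CLB2 (7.14), CLN1 (7.09), CLB3 (7.04), CLN3 (6.70), CLB5 (6.61), CLB4 (6.13) and CLB6 (6.01). mRNA levels were deposited to 1 decimal, so CLB2, CLN1 and CLB3 cannot be ranked among themselves, nor can CLN3 and CLB5 or CLB4 and CLB6.

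**Figure D1:**
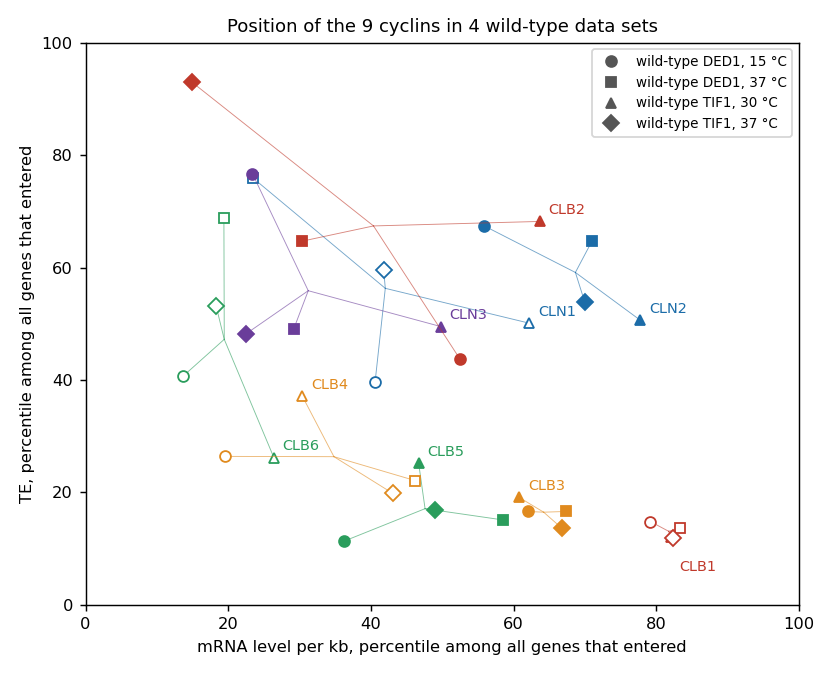
Each symbol is 1 cyclin in 1 wild-type data set (shapes as in the key; open symbols tell CLB1, CLB4, CLB6 and CLN1 from their paralogs of the same colour); the x axis is the percentile of its mRNA level per kb and the y axis that of its TE among all genes that entered, and thin lines join the symbols of a gene to their mean. CLB1 keeps to the lower right, at TE percentiles of 11.9 to 14.8. CLB2 reaches percentile 93.0 in wild-type TIF1 at 37 °C, where its mRNA per kb was at its lowest position, percentile 14.9.

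In ded1-cs at 15 °C, 4 of the 9 cyclins passed 2-fold in lower TE and 0 in lower mRNA. At 37 °C the counts were 2 for TE and 5 for mRNA in ded1-ts, and 1 and 5 in tif1-ts. For ded1-cs, TE was lower by 2-fold or more for 4 of the 9 (CLB2, CLB1, CLN3 and CLN1), where it was for 17.4% of 4855 genes. CLN1 only just passed that limit at -1.01, and the next value in the authors' deposited table was the -0.73 of CLB4. The median TE change of the 9 was -0.73, against 0.10 for all genes, or -0.83 relative to the latter, and 8 of the 9 were below 0. None had mRNA at least 2-fold lower, where 2.04% of genes did, and the median mRNA change was 0.18. At so low a share, 0 of the 9 does not set the cyclins apart from all genes. Footprints were at least 2-fold lower for 5 of 9, against 16.4% of genes.

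In ded1-ts, TE was lower by 2-fold or more for CLB2 and CLN2, 2 of the 9, against 4.64% of 5238 genes. mRNA was at least 2-fold lower for 5 (CLB6, CLN2, CLN1, CLB1 and CLB5), where 2.58% of genes were. The median mRNA change of the 9 was -1.24, against -0.01 for all genes, and 8 of the 9 were below 0. Footprints were lower than in the wild type for all 9, with a median change of -1.27 against 0.01 for all genes. They were at least 2-fold lower for 6, against 6.19% of genes. The median TE change was -0.53, against 0.08 for all genes.

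In tif1-ts at 30 °C no cyclin passed 2-fold in lower TE, where 1.14% of 4833 genes did, and the median TE change was -0.08. At so low a share, 9 genes are too few to set apart from all genes by this count. mRNA was already at least 2-fold lower for 3 (CLB6, CLN1 and CLN2) at this temperature, against 1.03% of genes, and so were the footprints of the same 3, against 1.49%. At 37 °C the TE of CLB2 alone was at least 2-fold lower, where 3.19% of 4854 genes were, and the median was 0.18. That count, too, does not set the cyclins apart from all genes. mRNA was at least 2-fold lower for 5 (CLB6, CLB1, CLN1, CLN2 and CLB5), against 3.23% of genes, with a median of -1.22 beside -0.04 for all genes. Footprints were at least 2-fold lower for 4, against 4.16%.

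No cyclin had a TE or mRNA level at least 2-fold higher in any of the 4 comparisons. Among all genes TE was that much higher in 8.63% in ded1-cs, 4.18% in ded1-ts, and 2.34% (30 °C) and 5.27% (37 °C) in tif1-ts. The shares for mRNA in the same order were 0.844%, 2.52%, 1.3% and 3.79%. With shares this low, the absence of such cyclins does not set them apart from all genes. With a limit of 1.5-fold, TE was lower for 7, 4, 1 and 1 cyclins in that order, where 26.9%, 10.4%, 5.75% and 11.4% of genes were.

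**Figure D2:**
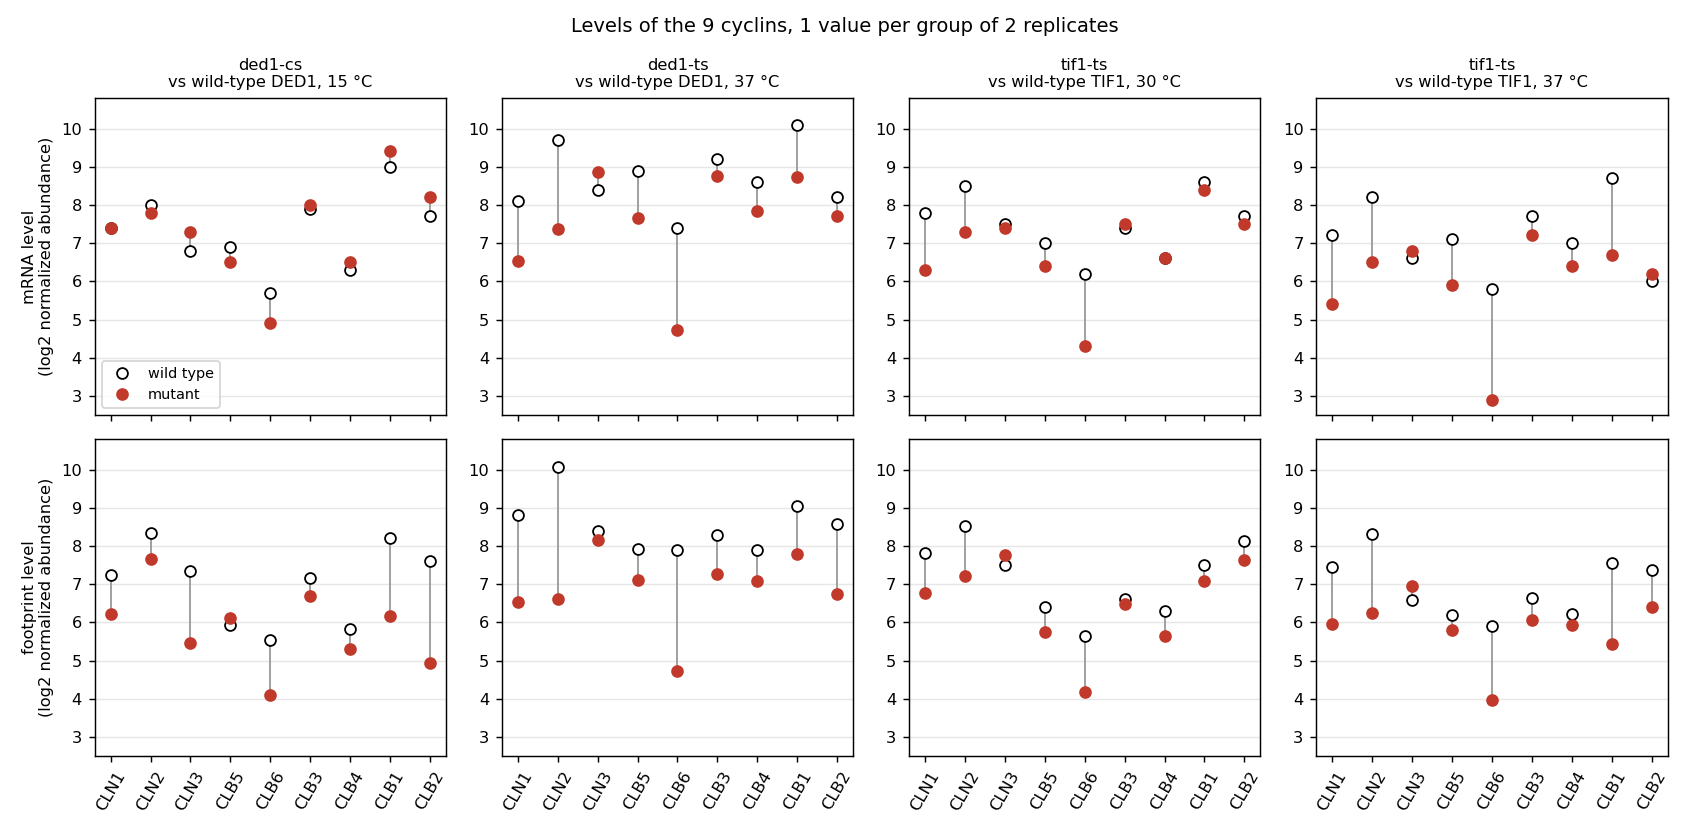
Levels of the 9 cyclins (x axis) as log2 normalized abundance (y axis), mRNA in the upper and footprints in the lower row, for wild type (open) and mutant (red) in the 4 comparisons, 1 value per group. In ded1-cs the mRNA symbols lie closest for CLN1 and farthest apart for CLB6, from 5.7 to 4.9, while the footprints of CLB2, CLB1, CLN3, CLB6 and CLN1 are lower, with changes from -2.68 to -1.02 by the authors' deposited table; in the comparisons at 37 °C the mRNA of CLN1, CLN2, CLB5, CLB6 and CLB1 separates too.

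CLB2, the main mitotic cyclin gene, had the lowest TE change of the 9 in 3 of the 4 comparisons. In the authors' deposited table for ded1-cs its footprints went from 7.61 in the wild type to 4.93 in the mutant, while its mRNA went from 7.7 to 8.2. The TE change was -3.15, an 8.88-fold lower TE, at percentile 0.278 of all genes. The footprints behind it were about 597 reads in the wild type and 36 in the mutant, with a counting error of 0.25 on the footprint change of -2.68. In ded1-ts the authors' deposited table gave footprints of 8.57 and 6.73 and mRNA of 8.2 and 7.70 for wild type and mutant. TE was 2.44-fold lower there, with 1.47-fold lower mRNA.

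CLB2 differed little in mRNA and TE in tif1-ts at 30 °C, with mRNA of 7.7 and 7.5 in the authors' deposited table and a TE change of -0.27. Its footprints there were 8.12 and 7.64, which is 1.4-fold lower. At 37 °C the corresponding footprints were 7.374 and 6.39 and the mRNA 6.0 and 6.2, and by the authors' deposited table TE differed by -1.21. The TE of CLB2 in that comparison stood at percentile 93.0 in the wild type and at 58.4 in the mutant. That wild-type TE rests on the mRNA value of 6.0, deposited to 1 decimal. CLB2 mRNA per kb was at percentile 14.9 in wild-type TIF1 at 37 °C and at 63.7 at 30 °C, in tables normalized separately.

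CLB1, whose protein overlaps with Clb2 in function, also had a much lower TE in ded1-cs, and TE changes between -0.14 and 0.13 in the other 3 of the authors' deposited tables. Its footprints in the authors' deposited table went from 8.20 to 6.17 in ded1-cs and its mRNA from 9.0 to 9.4, a TE change of -2.38 or 5.21-fold. In the mutant its TE was at percentile 1.2 of all genes, next to the 1.09 of CLB2. For ded1-ts, CLB1 mRNA in the authors' deposited table went from 10.1 to 8.74, 2.64-fold lower. Its mRNA in the authors' deposited tables for tif1-ts went from 8.6 to 8.4 at 30 °C and from 8.7 to 6.7 at 37 °C. The latter is 3.94-fold lower, and CLB1 footprints were 4.34-fold lower with it. At 37 °C the mRNA of CLB1 was thus far below its wild type in tif1-ts while that of CLB2 was not; the authors' deposited table gave -1.98 and 0.22. CLB2 mRNA per kb was low in both columns, at percentile 14.9 in the wild type and 15.1 in the mutant. That wild-type position was the lowest of CLB2 in the 4 wild types, so the CLB2 side of this contrast starts from a low wild-type value. The CLB1 side does not use that value.

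CLN3, the upstream activator of G1, had the third lowest TE change in ded1-cs and no lower mRNA in ded1-cs or ded1-ts. Its mRNA is known to carry a short upstream open reading frame in its leader that lowers its translation. By the authors' deposited table for ded1-cs, its footprints went from 7.34 to 5.46 and its mRNA from 6.8 to 7.3. The TE change was -2.35, 5.09-fold lower, and CLN3 moved from TE percentile 76.7 in the wild type to 10.5 in the mutant. In ded1-ts its TE was 1.64-fold lower, and the authors' deposited table gave footprints of 8.39 and 8.15 and mRNA of 8.4 and 8.87 for wild type and mutant. The authors' deposited tables for tif1-ts gave CLN3 a TE change of 0.40 (30 °C) and 0.18 (37 °C), beside mRNA changes of -0.14 and 0.20. CLN3 was the sole cyclin with more footprints in tif1-ts than in the wild type at either temperature, by 0.26 and 0.38 in the authors' deposited tables.

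CLN1 and CLN2, the G1 cyclins that follow Cln3, had lower mRNA in both temperature-sensitive mutants. The authors' deposited table for ded1-ts gave CLN2 mRNA of 9.7 and 7.36 and footprints of 10.07 and 6.61 for wild type and mutant. Its mRNA was thus 4.96-fold and its TE 2.21-fold lower, and together footprints were 11.0-fold lower, the largest footprint difference among the cyclins in any comparison. About 1243 reads in the wild type and 118 in ded1-ts stood behind it, with a counting error of 0.14. CLN1 mRNA went from 8.1 to 6.54 and its footprints from 8.80 to 6.53 in the authors' deposited table for ded1-ts, which is 2.98-fold lower mRNA and 1.61-fold lower TE.

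In tif1-ts at 30 °C the mRNA of CLN1 went from 7.8 to 6.3 and that of CLN2 from 8.5 to 7.3 in the authors' deposited table. At 37 °C the corresponding levels of the authors' deposited table were 7.2 and 5.4 for CLN1 and 8.2 and 6.5 for CLN2. These are 2.85-fold and 2.33-fold lower levels at 30 °C, and 3.42-fold and 3.23-fold at 37 °C. TE differed less, by 0.47 and 0.28 for CLN1 and -0.08 and -0.37 for CLN2 at 30 °C and 37 °C in the authors' deposited table. ded1-cs showed another picture, since the mRNA changes were -0.01 for CLN1 and -0.22 for CLN2 and the TE changes -1.01 and -0.44 in the authors' deposited table.

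CLB6, an S-phase cyclin, had the lowest mRNA change of the 9 in each of the 4 comparisons. The authors' deposited table for ded1-ts gave mRNA of 7.4 and 4.73 and footprints of 7.89 and 4.73 for wild type and mutant, which is 6.2-fold lower mRNA. For tif1-ts the authors' deposited tables gave mRNA of 6.2 and 4.3 at 30 °C and of 5.8 and 2.9 at 37 °C, 3.81-fold and 7.22-fold lower. These changes stood at percentile 0.031 of all genes at 30 °C and 0.0515 at 37 °C. Its TE changes of 0.47 and 0.94 in tif1-ts, from the authors' deposited table, rest on about 30 and 23 mutant reads and on these low mRNA values. In ded1-cs the mRNA change of CLB6 was only -0.76 in the authors' deposited table.

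CLB5, the other S-phase cyclin, was the one cyclin whose TE was higher in ded1-cs, by 0.54 in the authors' deposited table. Its footprints there were 5.93 in the wild type and 6.12 in the mutant, and its mRNA 6.9 and 6.5. CLB5 mRNA was 2.37-fold lower in ded1-ts, where it went from 8.9 to 7.65 in the authors' deposited table. In the authors' deposited tables for tif1-ts it went from 7.0 to 6.4 at 30 °C and from 7.1 to 5.9 at 37 °C, 1.51-fold and 2.32-fold lower. CLB5 had TE changes of 0.43 in ded1-ts and 0.81 in tif1-ts at 37 °C in the authors' deposited table, so its footprints differed less than its mRNA.

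CLB3 and CLB4, the cyclins of spindle assembly, did not reach 2-fold in TE or mRNA in any comparison. Their mRNA changes lay between -0.75 (CLB4 in ded1-ts) and 0.19 (CLB4 in ded1-cs) over the 4 authors' deposited tables. Their TE changes lay between -0.73 (CLB4 in ded1-cs) and 0.32 (CLB4 in tif1-ts at 37 °C) in the authors' deposited tables. In ded1-cs both had TE values near the median of the family, -0.64 for CLB3 and -0.73 for CLB4 in the authors' deposited table. CLB3 footprints were 2.03-fold lower in ded1-ts, with 1.42-fold lower mRNA and 1.43-fold lower TE. In tif1-ts at 30 °C, CLB4 had the lowest TE change of the 9, -0.69 in the authors' deposited table, from about 138 footprint reads in the wild type and 82 in the mutant.

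**Figure D3:**
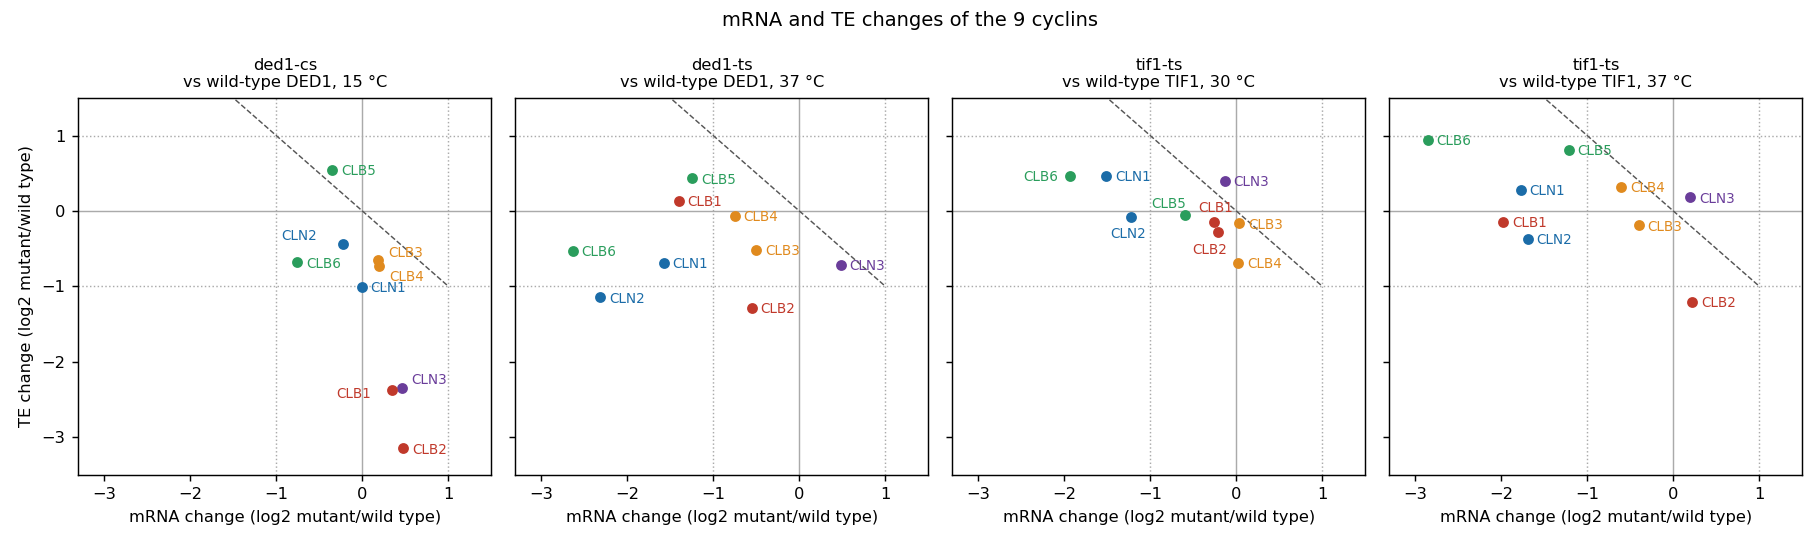
mRNA change (x axis) against TE change (y axis), both log2 of mutant over wild type, of each cyclin in the 4 comparisons; dotted lines mark 2-fold differences, and on the dashed diagonal footprints equal those of the wild type. CLB1, CLB2 and CLN3 lie far below 0 in TE in ded1-cs, and CLN1, CLN2, CLB5, CLB6 and CLB1 lie left of -1 in mRNA in both comparisons at 37 °C.

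TE and mRNA changes share the mRNA values, so an error in those shifts both, in opposite directions. Paralogs differed from each other as follows. The TE change of CLB1 lay above that of CLB2 by 0.77 in ded1-cs, 1.42 in ded1-ts and 1.07 in tif1-ts at 37 °C. CLB5 exceeded CLB6 in TE change by 1.22 in ded1-cs and 0.96 in ded1-ts, while in tif1-ts the difference, CLB5 minus CLB6, was -0.53 at 30 °C and -0.13 at 37 °C. The mRNA change of CLB5 was less negative than that of CLB6 by 1.39, 1.34 and 1.64 in ded1-ts and in tif1-ts at 30 °C and 37 °C. CLN1 and CLN2 differed by 0.46 to 0.65 in TE change, CLN1 being the lower in ded1-cs and CLN2 in the other 3 comparisons. CLB1 and CLB6 are neighbours in the genome, on chromosome VII, and so are CLB2 and CLB5 on chromosome XVI, on opposite strands with their 3′ ends facing (assembly R64). The sources used here do not say whether strand was used in counting, and without it reads from any stretch that such a pair shares cannot be told apart.

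The coding lengths of the cyclins run from 1143 bases in CLB6 to 1743 in CLN3. Longer genes had lower TE changes in ded1-cs, with a Spearman rho of -0.415 across 4853 genes, and the corresponding rho was -0.353 in ded1-ts and -0.212 and -0.39 in tif1-ts at 30 °C and 37 °C. Genes are not independent replicates, and their values share libraries. Among the 1223 genes of coding length within the range of the cyclins, 15.8% passed the same limit of lower TE in ded1-cs, and their median TE change was 0.06. The part of length in the cyclin values was not tested.

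Genes that regulate or resemble the cyclins were followed in 6 lists. For Cdc28 partners and inhibitors the median TE change in ded1-cs was -0.63, and TE was lower by 2-fold or more for 3 of 11, beside 17.4% of all genes. Among them were HSL7 (-1.80) and HSL1 (-1.41), which restrain the Cdc28 inhibitor Swe1, in the authors' deposited table. Medians of this list were -0.29 in ded1-ts, and 0.07 and 0.08 in tif1-ts. HSL1 was lower in TE in ded1-ts (-1.33) and in tif1-ts at 37 °C (-1.32) too in the authors' deposited table, and the chaperone partner CDC37 was lower in the latter (-1.36). CDC28 itself was not analysed here, nor was MSA2 of the next list.

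For regulators of G1/S transcription the median TE change in ded1-cs was -0.81, with 5 of 10 past 2-fold in lower TE, beside 17.4% of all genes. WHI4 (-2.33) and WHI3 (-1.13), RNA-binding proteins of which Whi3 is known to bind CLN3 mRNA, were among them in the authors' deposited table. The list median in ded1-ts was -0.23 in TE, and 2 of 10, beside 2.58% of all genes, had mRNA at least 2-fold lower: NRM1 (-2.51), a corepressor of MBF, and WHI5 (-1.04), the repressor of SBF, in the authors' deposited table. The TE medians in tif1-ts were 0.05 at 30 °C and 0.00 at 37 °C, and 2 of 10 had mRNA at least 2-fold lower at 37 °C, beside 3.23% of all genes.

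Regulators of G2/M and M/G1 transcription, which act on CLB1 and CLB2 among others, had the lowest TE median of the lists in ded1-cs, -1.57, and 5 of 8 were at least 2-fold lower, beside 17.4% of all genes. SWI5 (-1.72) and NDD1 (-1.52) were the abundant ones in the authors' deposited table. The median mRNA change of the list was 0.54, and none of the 8 passed 2-fold in lower mRNA, beside 2.04% of all genes. Their mRNA median in ded1-ts was -0.60 and 3 of 8, beside 2.58% of all genes, were at least 2-fold lower: the repressors YOX1 (-2.07) and YHP1 (-1.78), and FKH1 (-1.21), in the authors' deposited table. The mRNA medians for tif1-ts were -0.09 at the lower and -0.64 at the higher temperature, and 3 of 8 were at least 2-fold lower at 37 °C, beside 3.23% of all genes, with YHP1 at -2.27 in the authors' deposited table. TE medians of this list were -0.18, 0.26 and 0.21 in the same order.

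For the ubiquitin ligases that destroy cyclins the median TE change in ded1-cs was -0.11. Of 19, 3 passed 2-fold in lower TE, beside 17.4% of all genes, and 3 in higher TE, beside 8.63%; 3 of the 22 genes of this list did not enter in ded1-cs. The SCF subunits CDC4 (-1.46) and CDC53 (-1.13) were lower and the SCF subunit HRT1 (1.21) was higher in the authors' deposited table. The medians were 0.06, 0.06 and 0.08 in the other 3 comparisons, where GRR1, the F-box protein for Cln1 and Cln2, was the abundant member with lower TE in ded1-ts (-1.29 in the authors' deposited table). Pho85 cyclins, which bind another kinase, had TE medians of -0.45, 0.12, -0.05 and 0.04 in the 4 comparisons. CLG1 (-3.11) was lowest in ded1-cs in the authors' deposited table, where 4 of 10 were at least 2-fold lower, beside 17.4% of all genes. PCL1 had mRNA changes of -3.40 in ded1-ts and -2.12 in tif1-ts at 37 °C in the authors' deposited table. It was the 1 of 10 with mRNA at least 2-fold lower in each, beside 2.58% and 3.23% of all genes. In each, 1 of 10 was at least 2-fold higher, beside 2.52% and 3.79%. The mRNA medians of the list there were -0.07 and -0.13.

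**Figure D4:**
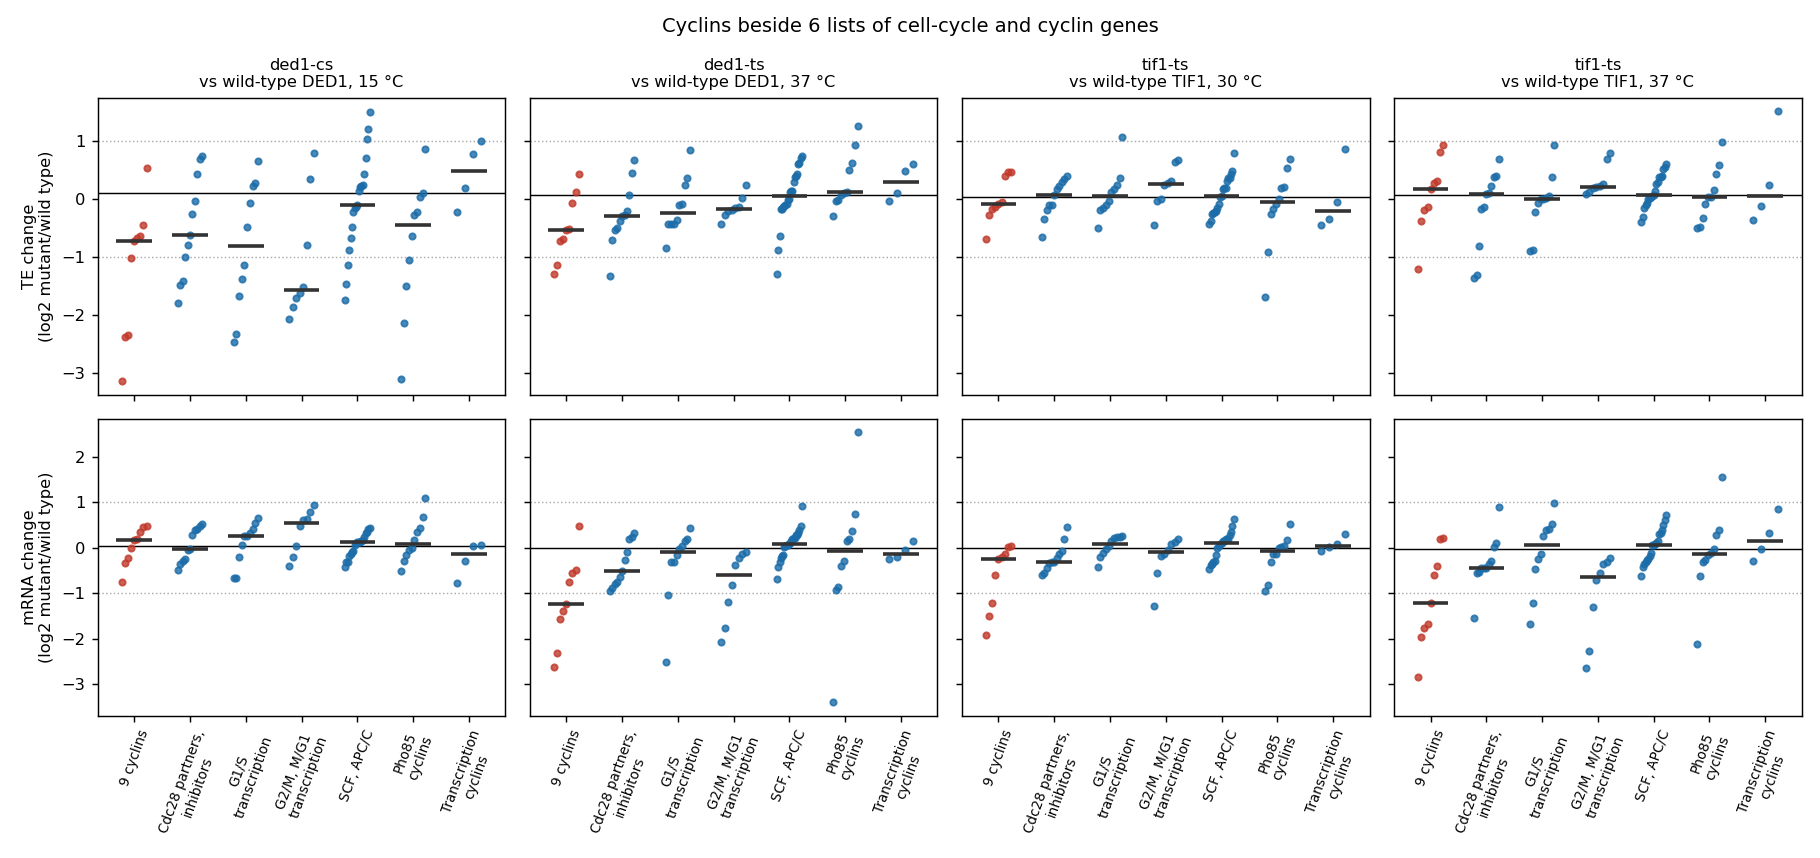
TE change (upper row) and mRNA change (lower row), log2 of mutant over wild type, of each cyclin (red) and of the members of 6 related gene lists (blue) in the 4 comparisons. Thick bars are list medians, the black line is the median of all genes and dotted lines mark 2-fold differences; in ded1-cs the medians of the cyclins (-0.73) and of the G2/M and M/G1 list (-1.57) lie below the line in TE while their mRNA medians lie above it.

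The genes whose 4 TE changes were closest to those of a cyclin, by Euclidean distance, were sought among 2265 genes of abundance 100 or more. For CLN3 they were CDC55, a regulatory subunit of protein phosphatase 2A (distance 0.255), FLC3 (0.257) and AFG3, for a mitochondrial protease subunit (0.386). Those nearest to CLN2 were the kinase gene RCK2 (0.374), the fatty acid activation gene FAA4 (0.397) and CDC20, the activator of the anaphase-promoting complex (0.431). CLB2 lay under that abundance in tif1-ts at 37 °C. With a floor of 10, chosen after its values were seen, its nearest genes among 4507 were the pyrimidine synthesis gene URA2 (0.575), the cohesin loader gene SCC2 (0.592) and the Golgi transport gene GEA2 (0.648). URA2 had TE changes of -2.81, -1.66, -0.29 and -0.93 in the 4 authors' deposited tables, beside -3.15, -1.29, -0.27 and -1.21 for CLB2.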

How the data were processed

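The authors deposited 4 tables of log2 normalized abundances, with 1 column for each group of 2 replicates, and their own log2 differences (mutant minus wild type) in footprints, mRNA and TE. The submitters' processing notes name Bowtie2 2.0.6, TopHat2 2.0.7, CASAVA 1.8, DESeq and build sacCer2, without roles. The sources used here do not give the pooling of replicates, the annotation, strand use or filters. Abundances are relative to the other genes of a table.

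Changes are the deposited differences. A gene entered at a mean abundance of at least 10 in both assays with no footprint column at 0 reads. Percentiles are over those genes, with ties at their midpoint. The value of 1 read came from the lowest steps of each footprint column; between 38.0% and 100% of genes of up to 10 reads lay within 0.1 read of a whole number. Counting errors came from those reads and cover counting alone. Coding lengths and gene order came from a RefSeq table of assembly R64, so no coordinates are given.

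Named genes were the 9 cyclins, DED1, list members past 2-fold at abundance 100 or more (at most 5 per list and comparison, by size) and the 3 genes nearest to CLB2, CLN2 and CLN3. The members, the 6 lists and the alternatives were chosen with earlier results of these data known. Python 3.11.15, pandas 2.3.3, numpy 2.4.6, scipy 1.17.1 and matplotlib 3.10.9 were used.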

Additional observations from a re-analysis of the deposited data

How the results depend on the processing

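No paired analysis was possible because each deposited column pools its replicates, and for the same reason no replicate could be left out. With a limit of 1.5-fold in place of 2-fold, the number of cyclins with lower TE went from 4 to 7 in ded1-cs, from 2 to 4 in ded1-ts and from 0 to 1 in tif1-ts at 30 °C. With an abundance floor of 100 it went from 1 to 0 in tif1-ts at 37 °C, since CLB2 lies under that floor there. These counts kept their value without a floor, relative to the median of all genes and when taken from the level columns. All 9 cyclins entered, so dropping the floor could not change a count. Recomputing the single TE and mRNA changes of the 9 cyclins in the last 2 ways gave 144 values. None moved from the reported change by more than its 95% counting interval (TE) or 0.1 (mRNA), and none past 2-fold reversed. Such agreement was built in and does not measure how firm a value is. The level columns hold the same data with other rounding, and the median shifts all genes of a comparison by 1 small amount. The footprint values rest on 20 to 360 estimated reads in the mutant columns. The precision of the mRNA values is unknown.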

Other observations

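The cyclins that serve RNA polymerase II, CCL1, SSN8, BUR2 and CTK2, do not drive the cell cycle and were followed beside the Cdc28 cyclins. Their median TE change was 0.49 in ded1-cs and 0.30 in ded1-ts, and -0.20 and 0.06 in tif1-ts at 30 °C and 37 °C. None of the 4 was at least 2-fold lower in TE in any comparison. Among all genes 17.4% were in ded1-cs, 4.64% in ded1-ts, and 1.14% (30 °C) and 3.19% (37 °C) in tif1-ts. With shares this low, 4 genes are too few to set apart from all genes by this count. SSN8, a subunit of the Mediator kinase module, had a TE change of 1.51 in tif1-ts at 37 °C in the authors' deposited table and was chosen after its values were seen.

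Among the Pho85 cyclins, PCL5, whose protein takes part in the destruction of Gcn4, had an mRNA change of 2.54 and a TE change of 0.93 in ded1-ts in the authors' deposited table, opposite to PCL1 in mRNA. PCL8 had a TE change of 1.26 in ded1-ts in the authors' deposited table. CLG1, lowest in TE in ded1-cs, had an mRNA change of 1.56 and a TE change of -0.48 in tif1-ts at 37 °C in the authors' deposited table.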
